A study of Mus musculus with 6 samples.

Results

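The chemokine genes Ccl3, Ccl4, Ccl5, Xcl1, Cxcl9, Cxcl10, Cxcl16, Ccl22, Ccl12 and Cxcl13 were followed in single cells sorted from a mouse glioma. They are 10 of the 32285 genes in the count matrices, each with 1 matching row, and were taken as a fixed list of names. The cells came from intracranial tumors of CT2A, a mouse glioma line, grown in wild-type C57BL/6J mice aged 6 to 8 weeks and sorted for CD3, a part of the T cell receptor complex. Tumors were taken on day 13 (16 mice, pooled by 4) or on day 19 (4 mice), with no treatment given in the labels. Each day is 1 droplet capture with RNA, antibody tag and T cell receptor (TCR) libraries, so no p-value can be given between days. RNA was counted in unique molecular identifiers (UMIs), each marking 1 captured molecule.

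Chemokines are small secreted proteins that steer leukocytes through G protein-coupled receptors. Ccl3, Ccl4 and Ccl5 are made by effector T cells, natural killer (NK) cells and activated myeloid cells, while Xcl1 is a lymphocyte product that attracts Xcr1-bearing type 1 dendritic cells. Cxcl9 and Cxcl10 are interferon-induced ligands of Cxcr3, the receptor that brings activated T cells into inflamed tissue. Cxcl16 is a membrane-anchored ligand of Cxcr6, Ccl22 a Ccr4 ligand of mature dendritic cells, Ccl12 a mouse Ccr2 ligand and Cxcl13 the Cxcr5 ligand that attracts B cells.

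Cxcl9 and Cxcl10 are neighbours on chromosome 5 that share a receptor, and their levels in T cells differed, so the 250 bases before each gene's start are shown. They are RefSeq sequences of build GRCm38.p6, 5′ to 3′ on the minus strand, at chr5:92328080-92328329 for Cxcl9 and chr5:92348890-92349139 for Cxcl10. Capitals mark matches to 1 of 4 patterns.
Cxcl9: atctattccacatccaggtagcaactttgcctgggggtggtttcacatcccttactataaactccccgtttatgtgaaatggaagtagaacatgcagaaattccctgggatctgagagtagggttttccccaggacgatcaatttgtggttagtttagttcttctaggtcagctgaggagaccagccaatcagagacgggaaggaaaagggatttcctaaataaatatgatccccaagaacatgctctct
Cxcl10: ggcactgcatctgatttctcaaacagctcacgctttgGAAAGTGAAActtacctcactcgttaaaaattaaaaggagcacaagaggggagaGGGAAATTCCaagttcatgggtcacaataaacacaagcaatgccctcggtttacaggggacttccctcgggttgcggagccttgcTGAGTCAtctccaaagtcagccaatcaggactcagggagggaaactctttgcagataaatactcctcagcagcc
The patterns were an interferon-stimulated response element core (GAAA, any 2 bases, GAAA), a gamma-activated site (TTC, any 3 bases, GAA), a kappaB site (GGGA, any 2 bases, TTCC) and an AP-1 site (TGA, any base, TCA), searched on both strands, and no 2 matches overlapped. They occur in 2.98%, 7.02%, 1.21% and 6.75% of the 32851 promoter windows of the same length. The Cxcl10 window held 1 match each to the response element, the kappaB and the AP-1 pattern. The Cxcl9 window held none, as did those of Ccl3, Xcl1, Ccl22, Ccl12 and Cxcl13. RefSeq windows were matched for 7 of the 10 genes. A match is a match of letters, not a binding site.

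Barcodes with at least 5000 gene UMIs and at most 10% mitochondrial UMIs numbered 8878 on day 13 and 4667 on day 19. The matrices held 144565182 and 81224453 gene UMIs, and 62 barcode sequences passed in both captures. TCR contigs of each day are deposited in 4 tables, and the barcodes of 1 table are called a contig set here. Clonotypes recurred between sets, so sets are not treated as independent replicates: they gave ranges, not tests. CD8 T cells were contig barcodes with Cd8a or Cd8b1 and no Cd4 UMIs (2959 and 1800 on days 13 and 19), and CD4 T cells the converse (797 and 794). Median depth was 7449 and 9846.5 UMIs in CD8 and 8492 and 10542.5 in CD4 barcodes. The T cell markers Cd3d, Cd3e, Cd3g, Trac, Trbc1 and Trbc2 were all detected in both classes. A further 875 and 621 contig barcodes could not be put in 1 class, and 3229 and 1109 barcodes with Cd3 UMIs but no contig were left out of the classes. Levels are CPM, the UMIs of a gene scaled to a fixed total of gene UMIs in the group, which is the same for all groups. Intervals are 95% and cover counting error only.

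CD8 T cell barcodes were divided by macrophage RNA, the summed UMIs of C1qa, C1qb, C1qc, Lyz2, Apoe and Cst3. The 10 genes fell into 2 sets by their level in barcodes with none of these UMIs. In barcodes with none of these UMIs, Ccl5 was at 6680 and 3837 CPM on days 13 and 19, Ccl4 at 437 and 417, Cxcl10 at 347 and 144, Xcl1 at 258 and 220, and Ccl3 at 59.9 and 80.4. In the same barcodes Cxcl9 was at 0.515 and 0 CPM, Ccl22 at 0 on both days, Cxcl13 at 0.172 and 0, Cxcl16 at 2.4 and 1.1, and Ccl12 at 1.72 and 1.47. With 20 or more macrophage RNA UMIs in CD8 barcodes these last 5 genes were present: Cxcl9 at 175 and 145 CPM, Cxcl16 at 350 and 191, Ccl12 at 236 and 176, Ccl22 at 56.3 and 25.3, and Cxcl13 at 26.7 and 68.8. Barcodes with 20 or more such UMIs made up 12.6% of CD8 and 45.5% of CD4 barcodes on day 13 and 20.8% and 55.2% on day 19. Those with under 2 made up 52.3% of CD8 and 29.1% of CD4 barcodes on day 13 and 37.7% and 17.9% on day 19, so day ratios over all barcodes compare classes that differ in these shares. In CD8 barcodes with 20 or more against none, 7 of the 10 genes were higher by 2-fold or more on each day. Among all genes 15.7% and 14.5% were. The 7 include some of the first 5 genes, which thus rose with macrophage RNA too. Barcodes with 20 or more were deeper than those with none (median 13208 against 6516.5 UMIs in CD8 on day 13). No doublet caller was run, and the part of doublets or free RNA in these levels was not tested.

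**Figure D1:**
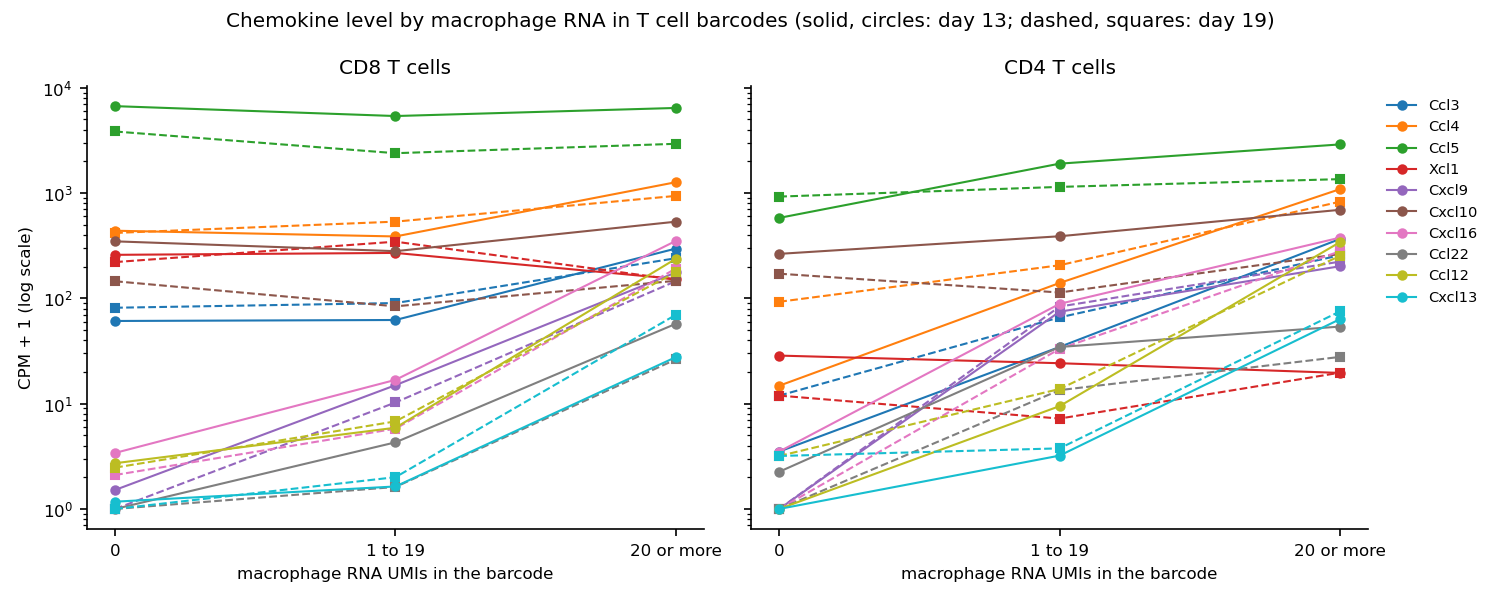
Level of each gene (CPM + 1, log axis) in CD8 (left) and CD4 (right) T cell barcodes with 0, 1 to 19 or 20 or more macrophage RNA UMIs; solid lines are day 13 and dashed lines day 19. In CD8 barcodes Ccl5, Ccl4, Cxcl10, Xcl1 and Ccl3 are present at every level of macrophage RNA. In the same barcodes Cxcl16, Cxcl9, Ccl12, Ccl22 and Cxcl13 start near 0.

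Ccl5, an effector chemokine of cytotoxic T cells, had a lower level on day 19 in both T cell classes. In CD8 T cells it was at 5840 CPM (5812 to 5868) on day 13 and 2717 CPM (2695 to 2740) on day 19, a log2 ratio of -1.10. The 4 contig sets were at 4581 to 7804 CPM on day 13 and at 2042 to 2990 CPM on day 19, so they did not overlap. In CD4 T cells Ccl5 was at 2334 and 1274 CPM, a log2 ratio of -0.87, and the sets again did not overlap. By state, Ccl5 was lower on day 19 in CD8 cells with progenitor markers (7627 and 2825 CPM) and in those with terminal markers (4803 and 2555 CPM). Terminal barcodes with Gzmc or Gzmf, a larger share of them on day 19, went the other way, as given with the granzymes. The log2 ratio in CD8 was -1.02 in barcodes with under 2 macrophage RNA UMIs. It was -0.80 without the day-13 set 2, which held the highest level, and -0.94 after each barcode was thinned to 5000 UMIs, so the 2-fold call was lost under both. Free RNA moved the same way: droplets with 1 to 100 UMIs held Ccl5 at 3286 and 1359 CPM, and its part in the T cell values was not tested.

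Ccl3 and Ccl4 showed no such difference by day. In CD8 T cells Ccl3 was at 105 and 128 CPM and Ccl4 at 561 and 628 CPM, with overlapping sets for both. Droplets with 1 to 100 UMIs held Ccl3 at 142 and 177 CPM and Ccl4 at 515 and 523 CPM, so CD8 Ccl3 lay below this free RNA level and Ccl4 close to it, and its part in the T cell values was not tested. In CD4 T cells Ccl3 was at 219 and 191 CPM and Ccl4 at 666 and 618 CPM. These CD4 levels differed by macrophage RNA. In CD4 barcodes with 20 or more such UMIs Ccl4 was at 1087 and 826 CPM, and in those with none at 13.8 and 91.7 CPM. In CD4 barcodes with under 2 such UMIs, Ccl3 was at 16.9 and 12.8 CPM and Ccl4 at 49.5 and 67.9 CPM. CD8 over CD4 was -1.06 (log2) for Ccl3 on day 13 over all barcodes and 1.86 in the barcodes with under 2 UMIs, and for Ccl4 -0.25 and 3.14. Macrophage RNA summed to 2875 and 3180 CPM in CD8 and 10338 and 10527 CPM in CD4 barcodes. RefSeq spans of Ccl3 (chr11:83647843-83649378) and Ccl4 (chr11:83648624-83664683) overlap on chromosome 11, and the sources do not say whether counting used strand. Ccl3 UMIs were found in 30.2% of CD8 barcodes with a Ccl4 UMI and in 5.01% of those without on day 13, and in 34.2% and 5.34% on day 19 (thinned to 5000 UMIs). In CD8 barcodes with under 2 macrophage RNA UMIs these shares were 23.2% and 4.09% on day 13.

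Xcl1, a lymphocyte-made chemokine, was at 245 and 276 CPM in CD8 and at 21 and 14.8 CPM in CD4 T cells. In regulatory-type CD4 barcodes with a Foxp3 UMI it was at 1.9 and 0.441 CPM, from 5 and 2 UMIs. Free RNA was present in both captures: droplets with 1 to 100 UMIs held Xcl1 at 72.8 and 90.8 CPM and C1qa, a macrophage complement gene, at 630 and 1022 CPM. Against those droplets the Xcl1 level in Foxp3-positive barcodes was 2.61% and 0.486%, while their C1qa level was 676 and 1393 CPM. Cxcl10 in the same droplets was at 447 and 163 CPM, lower on day 19 as it was in T cells, and its part in the T cell values was not tested.

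Of the 10 genes, 2 were lower by 2-fold or more on day 19 in CD8 T cells, Ccl5 and Cxcl10, and 1 was higher, Cxcl13. Among all genes with at least 20 UMIs in the pair of sums, 3.16% were lower and 3.29% higher by that much. The median log2 ratio of the 10 was 0.10 against -0.03 for all genes tested. In CD4 T cells 1 of the 10 was lower, Cxcl10, and 0 were higher, against 2.79% and 3.44% of all genes. The CD4 count was 0 to 3 lower over the alternatives: 0 with at least 2 class UMIs, 3 after thinning, and 2 without any 1 of the day-13 sets 1, 2 and 4 or the day-19 sets 2 and 3. In CD8 barcodes with under 2 macrophage RNA UMIs, 7 of the 10 had enough UMIs; 4 of them were lower and 0 higher, against 2.31% and 2.2% of all genes. The 4 were Ccl5, Cxcl10, Cxcl16 and Ccl12. Cxcl16 there had a log2 ratio of -2.55, from 35 and 3 UMIs, against -0.48 over all CD8 barcodes. Ccl12 was at -1.33 (-3.07 to 0.08), from 25 and 5 UMIs, against 0.10. In such CD4 barcodes 1 of 5 was lower and 0 higher, against 2.57% and 3.78%.

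Cxcl10, the interferon-induced Cxcr3 ligand, was at 341 CPM (334 to 347) on day 13 and 108 CPM (103 to 112) on day 19 in CD8 T cells, a log2 ratio of -1.66. The contig sets were at 241 to 424 CPM on day 13 and 69 to 215 CPM on day 19 and did not overlap. Both CD8 levels lay below the free RNA levels of 447 and 163 CPM. The 6 monocyte genes summed to 3711 and 2499 CPM in CD8 and 2544 and 1427 CPM in CD4 barcodes, lower on day 19 as well, and Ly6c2, which CD8 T cells also express, gave 76% and 78.2% of the CD8 sum. Their part in the Cxcl10 values was not tested. In CD4 T cells it was at 548 and 216 CPM (log2 ratio -1.34), with sets at 458 to 604 and 117 to 376 CPM. Among CD8 barcodes with under 2 macrophage RNA UMIs the values were 346 and 143 CPM (-1.28), and among such CD4 barcodes 221 and 121 CPM (-0.87), so the 2-fold call held in CD8 and not in CD4. In those CD8 barcodes the monocyte genes Ly6c2, Plac8 and Ccr2 were at 3026 and 2491, 762 and 475, and 29.8 and 6.71 CPM. The other monocyte genes, Chil3, F13a1 and Fn1, were each at 0 to 0.346 CPM there. With at least 2 UMIs of Cd4 required, the CD4 ratio was -0.95. Cxcl9, its neighbour, was at 41.3 and 44.5 CPM in CD8 and 139 and 173 CPM in CD4 T cells, with overlapping sets. In CD8 barcodes with under 2 macrophage RNA UMIs on day 13, Cxcl9 was found in 5 of 562 barcodes with a Cxcl10 UMI. Without a Cxcl10 UMI it was found in 2 of 987. In barcodes without Cd3 UMIs it was found in 34.6% of those with Cxcl10 and 15.7% of those without.

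**Figure D2:**
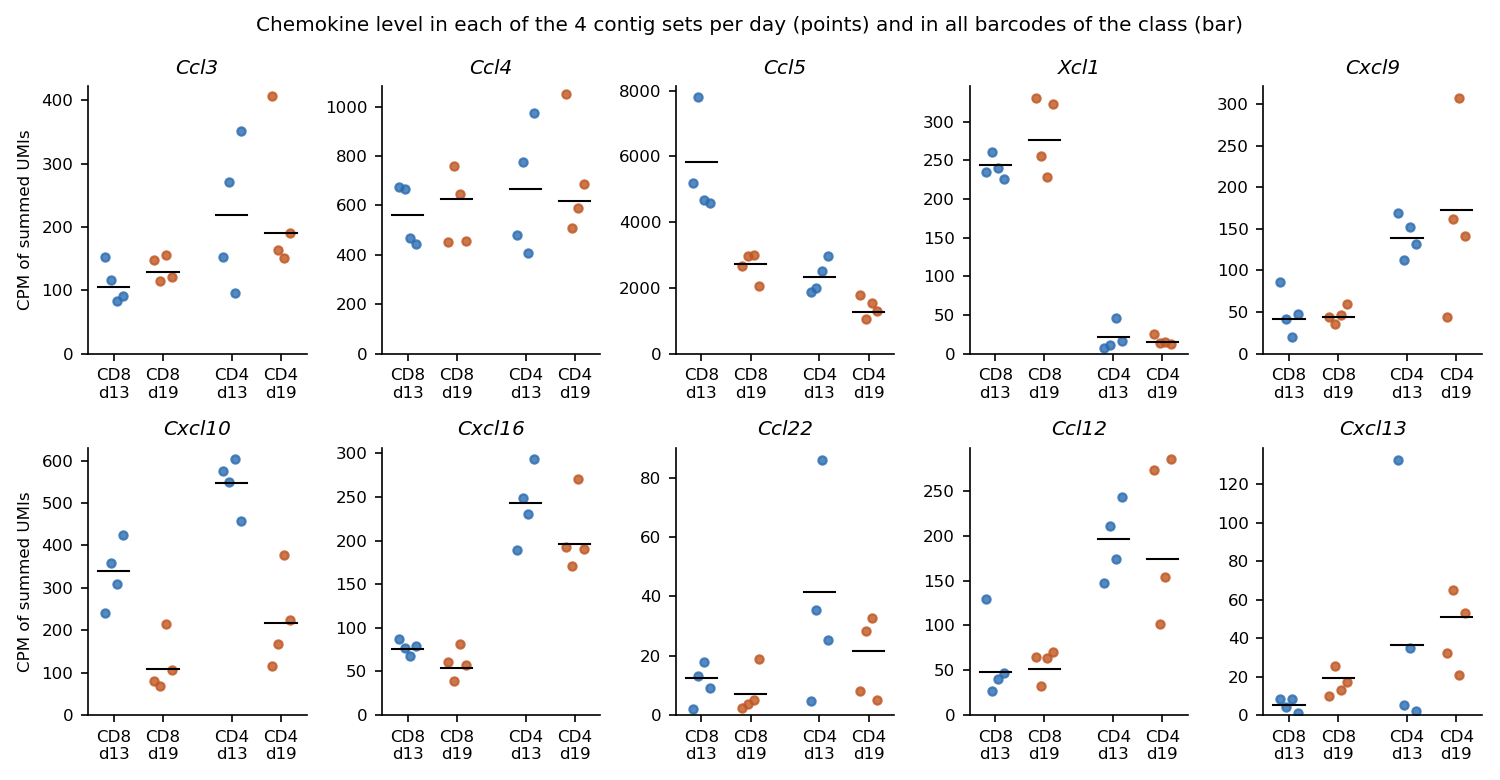
CPM of the 10 genes in CD8 and CD4 T cells by day; points are the 4 contig sets of a day and black lines the whole class. Ccl5 and Cxcl10 sets of day 19 lie below those of day 13 in both classes, and the other genes overlap between days except Cxcl13 in CD8.

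Cxcl13 in CD8 was at 5.41 CPM on day 13 and 19.1 CPM on day 19 (log2 ratio 1.82), and 45.5% of its day-13 UMIs came from 1 barcode. In CD8 barcodes with under 2 macrophage RNA UMIs Cxcl13 was at 0.259 and 0.344 CPM. Droplets with 1 to 100 UMIs held Cxcl13 at 12.8 and 42.2 CPM, which moved the same way, and the part of this free RNA in the CD8 values was not tested. Cxcl16 was at 75.6 and 54.4 CPM in CD8 and 243 and 196 CPM in CD4, Ccl12 at 47.6 and 50.9 and at 196 and 173, and Ccl22 at 12.5 and 7.17 and at 41.4 and 21.5. Free RNA held Cxcl16 at 219 and 141 CPM, Ccl12 at 131 and 164 CPM, Ccl22 at 30.2 and 10.3 CPM and Cxcl9 at 85.2 and 82.4 CPM, each above the CD8 level. CD4 levels of Cxcl16, Ccl12, Ccl22, Cxcl9 and Cxcl13 exceeded CD8 levels by more than 2-fold on both days. On day 19 the CD8 over CD4 log2 ratio was -0.61 for Ccl22 without the day-19 set 2 and -0.98 for Cxcl13 after thinning, so those calls were lost. Over all barcodes 2 of the 10 genes, Ccl5 and Xcl1, were higher in CD8 and 6 lower on each day. The Ccl5 ratio of 1.32 and 1.09 fell below 2-fold without set 2 of either day (0.93 and 0.78), and on day 19 also with at least 2 class UMIs (0.97) and with equal weight of sets (0.91). The sixth lower gene was Ccl3 on day 13, at -0.72 without the day-13 set 4, and Cxcl10 on day 19 (-1.01), at -0.90 without the day-19 set 2. Among all genes 4.98% were higher and 13.2% lower on day 13, and 4.53% and 13.6% on day 19. In barcodes with under 2 macrophage RNA UMIs 4 genes, Ccl3, Ccl4, Ccl5 and Xcl1, were higher in CD8 on each day. There 1 was lower on day 13, Cxcl9, and 0 on day 19, of 8 and 5 genes with enough UMIs. Ccl22 and Cxcl13 had no value on day 13. Cxcl16, Cxcl9, Ccl22, Ccl12 and Cxcl13 had none on day 19, so the 0 says nothing about them. The shares of all genes were then 4.29% higher and 5.21% lower on day 13, and 4.68% and 7.4% on day 19.

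By state, CD8 T cells were split on single UMIs: progenitor (Pdcd1 with Tcf7 or Slamf6, no Havcr2; 576 and 192 barcodes) and terminal (Pdcd1 and Havcr2, neither of the former; 220 and 426). Ccl3 and Ccl4 were higher in terminal cells, Xcl1 and Cxcl10 higher in progenitor cells. Ccl4 was at 1390 CPM in terminal and 323 CPM in progenitor barcodes on day 13 (log2 2.11) and at 1008 and 245 CPM on day 19 (2.04). Ccl3 was at 258 and 55.5 CPM on day 13 (2.22) and at 164 and 57.9 CPM on day 19 (1.50). Both were higher in terminal cells in 4 of 4 contig sets on each day. In barcodes with under 2 macrophage RNA UMIs the Ccl3 ratio was 3.24 on day 13 and 0.96 on day 19, below 2-fold.

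Xcl1 was at 303 CPM in progenitor and 92.4 CPM in terminal barcodes on day 13 (log2 -1.71) and at 458 and 118 CPM on day 19 (-1.96). It was lower in terminal cells in 4 of 4 contig sets on day 13 and in 3 of 4 on day 19. After thinning each barcode to 5000 UMIs before states were set, the Xcl1 ratios were -0.38 and -0.95, so the 2-fold call was lost on both days. On day 19, 31.5% of terminal Xcl1 UMIs came from 1 barcode, and with under 2 macrophage RNA UMIs the ratio was -5.31. Cxcl10 was at 407 and 130 CPM on day 13 (log2 -1.65) and at 123 and 42.8 CPM on day 19 (-1.53). It too was lower in 4 of 4 contig sets on day 13 and in 3 of 4 on day 19. Without the day-19 set 2 the Cxcl10 ratio on that day was -0.30. Ccl5 was at 7627 CPM in progenitor and 4803 CPM in terminal cells on day 13 (-0.67), and at 2825 and 2555 CPM on day 19 (-0.14). Terminal barcodes were deeper (median 12911.5 and 12457.5 UMIs) than progenitor ones (8306 and 11222). Among the 10, 3 were higher and 2 lower by 2-fold or more in terminal cells on day 13, against 4.92% and 4.81% of all genes, and 2 higher and 2 lower on day 19, against 5.38% and 5.52% of all genes. Without the day-19 set 2 the day-19 counts were 4 higher and 1 lower. The third higher gene on day 13 was Cxcl9, at 56 against 24.6 CPM, but 53.5% of its terminal UMIs came from 1 barcode and the ratio was -0.48 without the day-13 set 2.

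Ly49 proteins are receptors for MHC class I. Xcl1 had its highest level in CD8 T cells without Pdcd1 that carried a Ly49 receptor UMI (Klra1, Klra6, Klra7 or Klra9). It was at 687 CPM on day 13 and 898 CPM on day 19 there, with a UMI in 69.1% and 65.7% of barcodes thinned to 5000 UMIs. The same share was 1.3% and 0.348% in Foxp3-positive CD4 barcodes, whose median depth was 9611 and 14270 UMIs against 6897.5 and 10019 in the Ly49 barcodes. Against Pdcd1-negative CD8 barcodes with neither Ly49 nor Gzmk UMIs the log2 ratio was 2.22 and 2.99, higher in 4 of 4 contig sets each day. Of the 10 genes, Xcl1 was the 1 higher by 2-fold or more in that comparison on either day, with 3.21% and 5.95% of all genes higher; 2 were lower on each day, against 2.69% and 3% of all genes. These counts moved with the processing: without macrophage RNA barcodes 2 genes were higher on day 13 and 3 on day 19, with 0 lower on both days, and after thinning 4 were lower on both days. With equal weight of the contig sets 0 were lower on day 19. Leaving out 1 contig set gave 1 to 5 lower on day 13 and 0 to 4 on day 19. Xcl1 itself was at 1.93 and 2.75 without macrophage RNA barcodes. Clonotypes of 3 or more barcodes had Xcl1 at 114 and 117 CPM against 316 and 416 CPM in single-barcode clonotypes, with log2 ratios of -1.47 and -1.83. A single barcode gave 33.3% and 45% of the Xcl1 UMIs of the larger clonotypes, and without the day-19 set 1 the ratio was -3.70. Ccl4 was higher in the larger clonotypes, at 840 against 444 CPM on day 13 and 991 against 313 CPM on day 19.

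The other CD8 states had their own leading genes. Ccl5 had its highest level in Pdcd1-negative barcodes with Gzmk (granzyme K), at 9467 and 5874 CPM. Barcodes with Pdcd1, Havcr2 and a progenitor marker held Ccl3 at 139 and 316 CPM and Ccl4 at 942 and 1226 CPM. In barcodes with Pdcd1 alone Ccl4 was at 703 and 991 CPM and Ccl5 at 8102 and 3034 CPM. Cxcl10 was lower on day 19 than on day 13 in each of the 10 T cell states drawn, in which terminal cells are pooled, among them the Ly49 state (432 and 159 CPM) and Foxp3-positive CD4 barcodes (601 and 190 CPM).

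Terminal cells differed by the granzymes Gzmc and Gzmf. Barcodes with either made up 35 of 220 terminal barcodes on day 13 and 218 of 426 on day 19. Ccl5 was at 706 and 1467 CPM in them, a day log2 ratio of 1.06, and at 6240 and 3968 CPM (log2 ratio -0.65) in terminal barcodes without them. Cxcl10 was at 9.33 and 16.9 CPM with these granzymes, from 8 and 59 UMIs (log2 ratio 0.85, -0.22 to 2.13), and at 172 and 76.5 CPM without. On day 19, 39.3% of the latter came from 1 barcode.

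**Figure D3:**
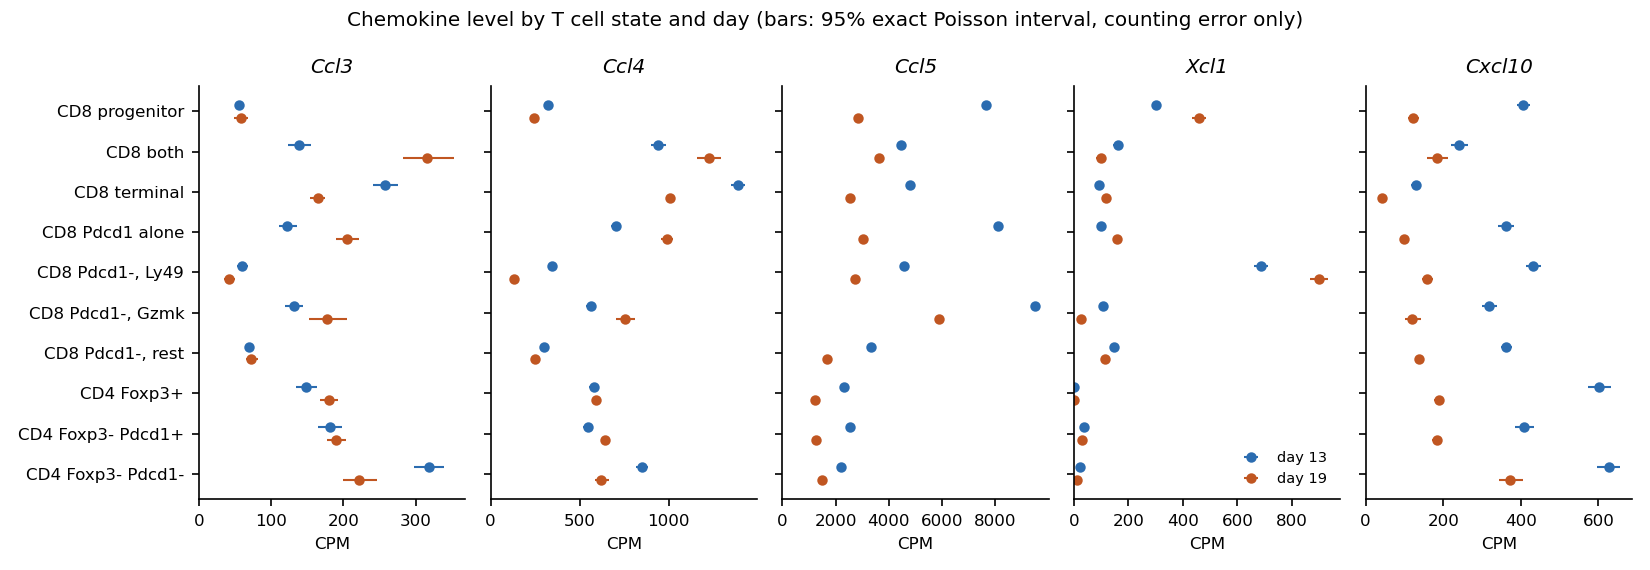
CPM of Ccl3, Ccl4, Ccl5, Xcl1 and Cxcl10 in 10 T cell states on day 13 and day 19, with 95% intervals. Xcl1 peaks in Pdcd1-negative Ly49 CD8 cells (687 and 898 CPM), and Ccl4 is higher in terminal (1390 and 1008 CPM) than in progenitor cells.

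In CD4 T cells Xcl1 was the gene with the widest gap between states. Foxp3-negative, Pdcd1-positive barcodes had Xcl1 at 37.4 and 31.3 CPM, against 1.9 and 0.441 in Foxp3-positive barcodes. On day 13 the log2 ratio was 4.30, higher in 3 of 4 contig sets, and 44.9% of the Pdcd1-positive UMIs came from 1 barcode. On day 19 it was higher in 4 of 4 sets, at least 47.3-fold, the Foxp3-positive count of 2 being set to the floor of 3. Of the 10 genes, 2 were higher and 1 lower on day 13, against 3.32% and 3.14% of all genes, and 1 higher and 1 lower on day 19, against 2.97% and 3.51%. Ccl22, a ligand of the Ccr4 that regulatory T cells bear, was at 29 CPM in Pdcd1-positive and 71.8 CPM in Foxp3-positive barcodes on day 13. Cxcl9 was at 99.9 against 210 CPM on day 19. Each is the 1 gene lower on its day, and each call was lost when 1 contig set was left out. The Ccl22 ratio of -1.31 was -0.98 without the day-13 set 2, and the Cxcl9 ratio of -1.07 was -0.36 without the day-19 set 3 and -0.99 without set 4. The second higher gene on day 13, Ccl12 (1.20), was at 0.62 without the day-13 set 4, 0.43 with at least 2 class UMIs and -0.63 after thinning. In barcodes with under 2 macrophage RNA UMIs 0 genes were higher and 2 lower on day 13, and 0 higher and 1 lower on day 19. Of the 10 genes, Xcl1, Cxcl16, Cxcl9, Ccl22, Ccl12 and Cxcl13 had under 20 UMIs in those barcodes on both days. Ccl3 also had under 20 there on day 19. No ratio is given for them there, so the counts cover only Ccl3, Ccl4, Ccl5 and Cxcl10 on day 13. On day 19 they cover Ccl4, Ccl5 and Cxcl10. No share over all genes was computed in those barcodes. Xcl1 also had no ratio on day 13 without the day-13 set 3.

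Barcodes with no Cd3d, Cd3e or Cd3g UMI numbered 1019 and 343, although the sort was for CD3, and 2 and 0 of them were in a contig table. They were split by which 1 of Cd209a, Fscn1, Gpnmb, Vcan and P2ry12 had at least 2 UMIs. Markers not used for the split were then summed. The 6 mature dendritic cell genes, among them Ccr7, summed to 7632 and 9175 CPM in the Fscn1 group. The 7 macrophage genes reached 22537 and 28144 CPM in the P2ry12 group. The 6 microglia genes summed to 7967 CPM there on day 13, against 791 CPM in the Gpnmb group. They were at 9058 CPM in barcodes with several of the 5 genes and at 1739 CPM over all these barcodes. The 6 monocyte genes were at 10848 and 9074 CPM in the Vcan group, and the macrophage genes at 33691 and 33731 CPM in the Gpnmb group. The 6 type 2 dendritic cell genes summed to 583 and 759 CPM in the Cd209a group against 484 and 557 CPM over all these barcodes. On day 13 the monocyte genes were at 4387 CPM in the Cd209a group and at 6139 CPM over all these barcodes. On day 19 the Gpnmb and Vcan groups held 5 and 11 barcodes, so their values are given without comparison.

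The Fscn1 group (107 and 28 barcodes) had the most Ccl5, Ccl22 and Cxcl16 of the groups with at least 20 barcodes. Ccl5 was at 12709 and 9387 CPM, with log2 ratios over the other barcodes without Cd3 of 2.48 and 3.20. Ccl22 was at 581 and 383 CPM (4.04 and 5.12), and on day 13 was found in 67.7% of Fscn1 barcodes with a Ccl5 UMI. Cxcl16 was at 1204 and 1009 CPM and Cxcl9 at 904 and 855 CPM. Of the 10 genes, 4 were higher and 5 lower on day 13, against 10.7% and 16.7% of all genes, and 3 higher and 3 lower on day 19, against 10.8% and 12.8%. Among the lower genes of day 13, Xcl1 and Cxcl13 had 0 UMIs in the group. After thinning 5 genes were lower on day 19. When barcodes with UMIs of another of the 5 genes were kept in the group, Ccl5 was at 1.77 and 2.14 and Ccl22 at 3.39 and 4.46, while Cxcl16 was at 0.53 and 0.42 and Cxcl9 at 0.28 and -0.22. The counts were then 3 lower on day 13, and 5 higher and 1 lower on day 19.

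The P2ry12 group (53 and 26 barcodes) had the most Ccl3, Ccl4 and Ccl12 of those groups. Ccl3 was at 1402 and 2033 CPM, Ccl4 at 3541 and 4128 CPM and Ccl12 at 1355 and 1594 CPM, with log2 ratios of 2.38 and 2.94, 1.55 and 1.99, and 2.89 and 2.61. A single barcode gave 29.6% of the Ccl3, 26.7% of the Ccl4 and 38.4% of the Ccl12 UMIs on day 19, and 22.7%, 17.2% and 17.6% on day 13. Barcodes with several of the 5 genes (23 on day 19) had Ccl4 at 3506 CPM and Ccl12 at 1161 CPM on day 19, so the order on that day rests on few barcodes. Cxcl13 was at 477 CPM on day 13, of which 58.5% came from 1 barcode, and at 38.5 CPM on day 19. Its day-13 ratio of 7.15 became -2.39 when 4 UMIs of P2ry12 were required. Of the 10 genes, 4 were higher and 1 lower on day 13, against 12.4% and 5.04% of all genes, and 3 higher and 4 lower on day 19, against 13.1% and 6.33%. The day-13 count of lower genes was 2 without barcodes with TCR UMIs or contigs, 3 with a minimum of 2000 UMIs or with groups sharing barcodes, 4 after thinning and 6 with 4 UMIs of P2ry12 required. On day 19 it was 2 with groups sharing barcodes and 7 with 4 UMIs required.

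The Vcan group (47 barcodes on day 13) had the most Cxcl10, at 4492 CPM and a log2 ratio of 1.79; 1 of the 10 genes was higher and 4 lower, against 4.83% and 13.9% of all genes. In the 11 day-19 barcodes Cxcl10 was at 2515 CPM. The Cd209a group (152 and 58) also held Cxcl10, at 2046 and 1757 CPM, with Ccl4 at 1414 and 978 CPM; 0 and 1 of the 10 genes were higher and 7 lower on each day, against 2.72% and 3.45% of all genes higher and 14.7% and 17% lower. The Gpnmb group (75 on day 13) had Cxcl16 at 884 CPM and Cxcl9 at 107 CPM, with 0 of the 10 genes higher and 5 lower, against 7.14% and 9.87%. On day 13 Xcl1 and Cxcl13 had 0 UMIs in the Fscn1, Vcan, Cd209a and Gpnmb groups. Ccl22 had 0 in the Vcan and P2ry12 groups and 1 in the Gpnmb group. These genes reached the minimum of 20 UMIs through other barcodes, which fixed their lower calls. The counts of lower genes are therefore not a trait of each group. Xcl1 was at 0 in the Fscn1, Gpnmb and Vcan groups on both days, where a count of 0 allows up to 3 UMIs. It was at 69.5 and 132 CPM in barcodes with none of the 5 genes, in which the 5 NK cell genes, with Ncr1 and Gzma among them, summed to 366 and 979 CPM.

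**Figure D4:**
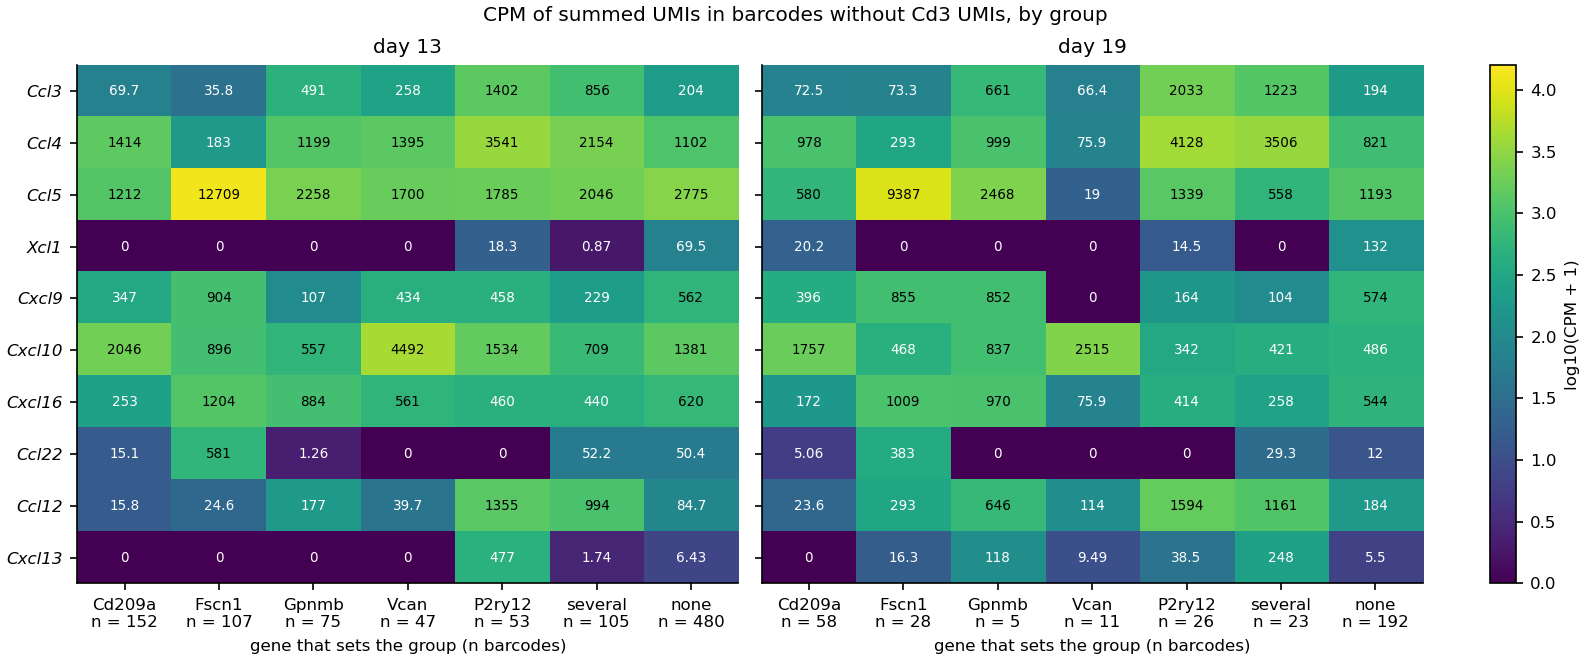
CPM of the 10 genes in barcodes without Cd3 UMIs, by the gene that set the group, or with several or none of the 5 genes, on day 13 (left) and day 19 (right); colour is log10(CPM + 1). Ccl5 and Ccl22 are highest in the Fscn1 group, Ccl3, Ccl4 and Ccl12 in the P2ry12 group, and Cxcl10 on day 13 in the Vcan group. On day 19 the Gpnmb and Vcan groups hold 5 and 11 barcodes and are not compared.

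Day 19 over day 13 in all barcodes without Cd3 UMIs gave log2 ratios of -1.04 for Ccl5, -0.92 for Cxcl10, -1.27 for Ccl22 and 1.24 for Xcl1. Of the 10 genes 2 were lower and 1 higher by 2-fold or more, against 2.61% and 4.23% of all genes. Ccl5 was at -0.83 with a minimum of 2000 gene UMIs and -0.92 after thinning, which leaves Ccl22 as the 1 lower gene. With that minimum the Xcl1 ratio was 0.50. Without barcodes that had a TCR constant-region UMI or a contig, the Xcl1 ratio was -0.35. The shares of groups differ between days, and their part in these ratios was not tested.

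Receptors for some of these ligands were read in the same T cells. Cxcr3, the receptor of Cxcl9 and Cxcl10, was at 161 and 81.1 CPM in CD8 (log2 ratio -0.99) and 170 and 134 CPM in CD4 T cells. Cxcr6, the Cxcl16 receptor, was at 190 and 164 CPM in CD8 and 69 and 91.3 CPM in CD4. Ccr2, the Ccl12 receptor, was at 38.8 and 19.1 CPM in CD8, and Ccr4 was at 40.8 and 21.4 CPM in CD4. Of 23 chemokine receptors 17 could be tested by day in CD8 T cells; 5 were lower and 1 higher by 2-fold or more, against 3.16% and 3.29% of all genes. In barcodes with under 2 macrophage RNA UMIs 2 of 12 receptors were lower and 0 higher, against 2.31% and 2.2%. Of 26 other chemokine ligands 14 could be tested, with 2 lower and 2 higher. The most abundant of those ligands in CD8 T cells was Ccl2, at 75.1 and 43 CPM, and in CD8 barcodes with under 2 macrophage RNA UMIs Ccl25 on day 13 (10.4 CPM) and Ccl1 on day 19 (12.7 CPM).

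Across 31 T cell states and groups without Cd3, counted over both days, the genes most like each member in log2(CPM + 1) differed by member. These groups come from only 2 captures and share depth, so Pearson's r is given as a description. For Cxcl10 they were Rsad2 (r = 0.98), Slfn5 and Ifit3, interferon-induced genes. For Cxcl16 they were Axl (0.97), Npc2 and Gabarap, and for Ccl12 Rnase4 (0.95) and Trem2. For Xcl1 they were Klrc2 (0.89), Eomes and Samd3. Within the list, Ccl3 and Ccl4 had r = 0.84, Cxcl9 and Cxcl16 0.84, Ccl3 and Ccl12 0.80, and Cxcl9 and Cxcl10 0.77. The lowest value was -0.73, for Xcl1 and Cxcl16.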

How the data were processed

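The authors deposited UMI counts per gene and barcode, unfiltered, for 1 capture per day, and tables of TCR contigs with UMI counts. Per the submitters' processing notes, bcl2fastq 2.20, Cell Ranger 4.0.0, STAR 2.7.5c, Seurat and R 4.1.2 were used, with build mm10. Counts of barcodes with at least 5000 gene UMIs and at most 10% mitochondrial UMIs were summed per group and scaled to CPM with Python 3.11.15, numpy 2.4.6, scipy 1.17.1 and pandas 2.3.3. Ratios have exact conditional intervals. A gene was called higher or lower at 2-fold or more with at least 20 UMIs in the pair of sums together; sums under 3 were set to 3 and never counted as the higher side. Groups under 20 barcodes were not compared. Shares used barcodes thinned to 5000 UMIs. The ratio and call steps were tested on simulated counts. The 138 antibody tags were not used here. All members are named, with the 3 other ligands of highest CPM per class, the members' receptors, and the 3 genes of highest Pearson r per member. A few items that these rules pick are not reported here. Members and lists were chosen with earlier results of these data known.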

Additional observations from a re-analysis of the deposited data

Results flagged for a closer look

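Each of the 5 results below has opposite signs in 2 groups with intervals apart from 0, and in each the difference was not tested. Cxcl9 in terminal over progenitor CD8 T cells had a log2 ratio of 1.19 on day 13 and -0.47 on day 19. The day 19 over day 13 log2 ratio was 0.29 in CD8 and -0.20 in CD4 T cells for Ccl3. It was 0.16 and -0.11 for Ccl4, and 0.17 and -0.50 for Xcl1. Ccl12 in Pdcd1-positive over Foxp3-positive CD4 T cells was 1.20 on day 13 and -0.33 on day 19. These signs did not hold in all alternatives. Ccl12 was at -0.63 on day 13 after thinning to 5000 UMIs and at 0.08 on day 19 without the day-19 set 4, and Cxcl9 was at -0.48 on day 13 without the day-13 set 2. With macrophage RNA barcodes left out, the day ratio in CD8 and CD4 was 0.33 and -0.40 for Ccl3, 0.13 and 0.45 for Ccl4, and 0.27 and -2.34 for Xcl1. Over the alternatives run, the CD4 ratio ranged from -0.48 to 0.17 for Ccl3, from -0.31 to 0.45 for Ccl4 and from -2.34 to 0.36 for Xcl1. The CD8 ratio was -0.10 for Ccl4 without the day-19 set 2 and -0.06 for Xcl1 after thinning.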

How the results depend on the processing

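No paired analysis was possible because each day is 1 capture and no label ties contig tables of the days to each other. Of 94 log2 ratios of 2-fold or more, 81 kept their sign in all alternatives run. Of 318 alternative counts of the 10 genes past 2-fold, 250 were within 1.5 times the reported count. The alternatives for CD8 against CD4, clone size and the day ratio without Cd3 were added after the data were seen. Causes were not tested. Without macrophage RNA barcodes, CD8 by day gave 0 higher and 4 lower; terminal over progenitor on day 19 1 higher; Ly49 2 higher and 0 lower on day 13, 3 and 0 on day 19; CD8 over CD4 4 higher and 1 lower on day 13, 4 and 0 on day 19; and Pdcd1-positive over Foxp3-positive CD4 0 higher and 2 lower on day 13, 0 higher on day 19. CD8 over CD4 then turned to 1.86 for Ccl3 and 0.20 for Ccl12 on day 13 and 0.24 for Cxcl10 on day 19. Counts without macrophage RNA barcodes cover only genes with 20 UMIs left. For CD8 over CD4 these were 8 and 5 of the 10 on days 13 and 19. Cxcl16, Cxcl9, Ccl22, Ccl12 and Cxcl13 had no value there on day 19, nor in the CD4 states on either day. With 2 class UMIs required, CD4 by day gave 1 higher and 0 lower, CD8 over CD4 1 higher and Ly49 1 lower on day 19, and the CD4 states 1 higher on day 13 and 2 lower on day 19. With equal weight of sets, CD4 by day gave 2 lower, and CD8 over CD4 1 higher and Ly49 0 lower on day 19. After thinning to 5000 UMIs, CD4 by day gave 3 lower, Ly49 4 lower on both days, terminal over progenitor 1 lower and the CD4 states 2 lower on day 13, where Ccl12 turned to -0.63; the P2ry12 group gave 4 lower on day 13, the Fscn1 group 5 lower on day 19, and the day ratio without Cd3 1 lower, as it did with a minimum of 2000 UMIs. That minimum gave 3 lower in the P2ry12 group on day 13 and 1 lower for Ly49 on day 19. With groups sharing barcodes, Fscn1 gave 3 lower on day 13, and 5 higher and 1 lower on day 19, Gpnmb 1 higher, and P2ry12 3 lower and 2 lower. There Fscn1 ratios turned to 0.60 for Ccl3 and 1.76 for Ccl12 on day 13, and 1.18 for Ccl3 and 0.98 for Ccl4 on day 19. With 4 UMIs for a group, P2ry12 gave 6 and 7 lower and Cxcl13 turned to -2.39 on day 13; Vcan held 17 barcodes and was not run. Without TCR UMIs or contigs P2ry12 gave 2 lower on day 13, and Xcl1 turned to 0.62 in Cd209a and 0.16 in P2ry12 on day 19 and to -0.35 by day. Leaving out 1 contig set gave 1 to 3 lower in CD8 by day, 0 to 1 higher and 1 to 2 lower in CD4 by day, 2 to 4 higher and 2 to 3 lower for terminal over progenitor on day 13, 2 to 4 and 1 to 3 on day 19, 1 to 5 lower for Ly49 on day 13, 1 to 2 higher and 0 to 4 lower on day 19, 1 to 2 higher and 5 to 6 lower for CD8 over CD4 on day 13, 1 to 2 and 4 to 6 on day 19, and 1 to 2 higher and 0 to 2 lower in CD4 states on day 13, 0 to 1 lower on day 19. Cxcl9 in terminal over progenitor on day 13 ranged from -0.48 to 1.94. In 41 cases under 20 UMIs left no value.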
